A study of Mus musculus with 7 samples.

Results

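Open chromatin was examined at 4 genes that direct myeloid development, Spi1, Cebpa, Csf1r and Irf8, in blood stem cells that carried a Runx3 vector or a control vector. Members were the ATAC-seq peaks whose midpoint lay in a fixed mm9 window around each gene, chosen by position. The rule kept 53 of the 98723 peaks in the table. The Spi1 window, chr2:90890000-90980000, held 14 peaks and was drawn to take in the gene's upstream regulatory element. The Cebpa window, chr7:35870000-35990000, held 17 peaks and was drawn to take in the enhancer known as the +37 kb element. The Csf1r window, chr18:61240000-61310000, held 5 peaks, and the Irf8 window, chr8:123220000-123380000, held 17.

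The libraries came from C57BL/6 mice. Bone marrow cells enriched for cKit were taken from donors aged 24 months, infected with lentivirus, and transplanted into lethally irradiated recipients. Runx3 libraries (n = 3, numbered 1, 3 and 4) came from cells given the Runx3-expressing virus, and control libraries (n = 4, numbered 1 to 4) from cells given the control virus. Both groups therefore share the aged donor, the infection, the transplantation and a 16 week interval before sorting. The sorted cells were LSK, negative for Flt3 and CD48, and positive for CD150, for the donor marker CD45.2 and for hCD2, by which transduced cells were selected. The promoter that drives Runx3 is not given in the sources used here. The labels do not say whether libraries stem from separate recipients or pools, so a p-value here reflects only how these libraries scatter, and that scatter may be technical. The markers that define stem cells were not analysed here at the level of accessibility, since no mm9 annotation was at hand, and the label was taken as given.

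Spi1 encodes PU.1, an ETS-family factor that is needed for myeloid and B-cell development, and its level is set largely through its upstream regulatory element. Cebpa encodes C/EBP alpha, which drives the step into the granulocyte and monocyte lineage. Irf8 encodes a partner of PU.1 that favours monocytes and dendritic cells over neutrophils, and Csf1r encodes the receptor for macrophage colony-stimulating factor, a target of PU.1 and the gene among them that acts at the cell surface. Runx3 belongs to the RUNX family, whose members share a DNA-binding domain and a recognition sequence. Its relative RUNX1 is known to bind the Spi1 upstream element and the downstream Cebpa enhancer, and open chromatin at lineage genes is known in stem cells before any lineage choice.

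The sequence around gene starts is shown for Cebpa and Irf8 because it is what the RefSeq promoter table (build GRCm38.p6) holds for these loci. It lets a given form of the recognition sequence of the vector's factor be looked for. Each stretch spans 250 bases before to 50 bases after a start, on the plus strand. The Cebpa stretch is chr7:35119043-35119342, and the Irf8 stretches are chr8:120736108-120736407 and chr8:120738389-120738688. These positions belong to another build than the peaks, so no peak was placed on them. Spi1 and Csf1r had no entry. Capitals mark TATAAAA, the core of a TATA box.
Cebpa start: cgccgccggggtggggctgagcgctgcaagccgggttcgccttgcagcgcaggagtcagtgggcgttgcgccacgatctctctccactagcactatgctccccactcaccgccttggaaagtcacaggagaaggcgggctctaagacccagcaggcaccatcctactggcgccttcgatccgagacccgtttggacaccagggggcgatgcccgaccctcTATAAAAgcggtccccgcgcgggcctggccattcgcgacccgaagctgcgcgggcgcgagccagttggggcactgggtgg
Irf8 first listed start: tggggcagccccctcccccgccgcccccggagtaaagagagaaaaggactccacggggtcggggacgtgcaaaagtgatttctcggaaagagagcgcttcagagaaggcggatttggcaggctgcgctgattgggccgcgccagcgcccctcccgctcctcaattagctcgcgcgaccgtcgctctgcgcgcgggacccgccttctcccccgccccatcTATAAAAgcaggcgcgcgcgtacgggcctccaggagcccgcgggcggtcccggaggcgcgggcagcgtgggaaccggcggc
Irf8 second listed start: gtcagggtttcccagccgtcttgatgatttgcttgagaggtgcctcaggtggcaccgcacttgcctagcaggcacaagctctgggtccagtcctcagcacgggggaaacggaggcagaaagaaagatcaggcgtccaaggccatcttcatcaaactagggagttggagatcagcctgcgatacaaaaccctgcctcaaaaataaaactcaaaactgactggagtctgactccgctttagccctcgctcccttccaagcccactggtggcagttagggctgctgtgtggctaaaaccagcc
The TATAAAA letters lie 30 bases before the Cebpa start and 31 bases before the first listed Irf8 start, and they occur on either strand in 5.48% of the 32851 promoters in the table. That search was added after the sequences had been read. TGTGGT, the only RUNX form searched, occurs in none of the 3 stretches on either strand, against 16.8% of all promoters. The letters searched for PU.1 (GAGGAAGT, in 3.2% of all promoters), for C/EBP (TTGCNNCAA, in 2.08%) and for an ETS-IRF element (GGAA and GAAA with 2 free bases between, in 2.72%) were likewise absent. G and C made up 67.3% of the Cebpa stretch and 70.0% and 54.7% of the Irf8 stretches. Other forms of each sequence were not searched. An absence says only that these exact letters are not in these windows, not that the stretches lack a site for RUNX, PU.1, C/EBP or ETS-IRF.

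Counts in peaks ran from 1738164 to 2576715 in the Runx3 libraries and from 2188113 to 3758422 in the control libraries. Levels are given as CPM, reads scaled to a common total in tested peaks after TMM normalization, and 3 reads correspond to 1.26 to 1.87 CPM in Runx3 libraries and 0.863 to 1.55 CPM in controls. The libraries fall into sets that cut across the vectors. Runx3 1, control 1 and control 2 (set 1) differed at least 8-fold from the other 4 (set 2) at 57 of the 98723 peaks. None of these was a member, which says little with so few peaks. Within each vector, set 1 held the libraries with the fewest reads in peaks, so set and depth are not separate there. Values within each set are given beside the larger differences. In a bulk library, fewer cells with a site open and less opening per cell cannot be told apart.

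None of the 42 member peaks that passed the low-count filter passed the test between Runx3 and control libraries (edgeR quasi-likelihood, adjusted p under 0.05). The background was low as well, at 0.073% of the 57504 peaks tested. DESeq2 and limma-voom also called 0 members, and DESeq2 gave no adjusted p for 10 of them. At an unadjusted p under 0.05, edgeR gave 4 of the 42 members (9.52%), 1 with a positive and 3 with a negative log2 fold change, where 8.31% of all tested peaks reached that level. DESeq2 gave 2 such members and limma-voom 4. The members' median log2 fold change (Runx3 over control) was -0.02, beside -0.01 for all tested peaks, and 21 members lay above 0 and 21 below. All 3 Runx3 libraries lay below all 4 controls in 3 members, where 4.58% of tested peaks showed that pattern. They lay above in 1 member, where 4.36% did. The 4 members past the unadjusted threshold were a pair at Cebpa and a pair at Csf1r. The remaining 11 members did not pass the filter and were not tested.

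**Figure D1:**
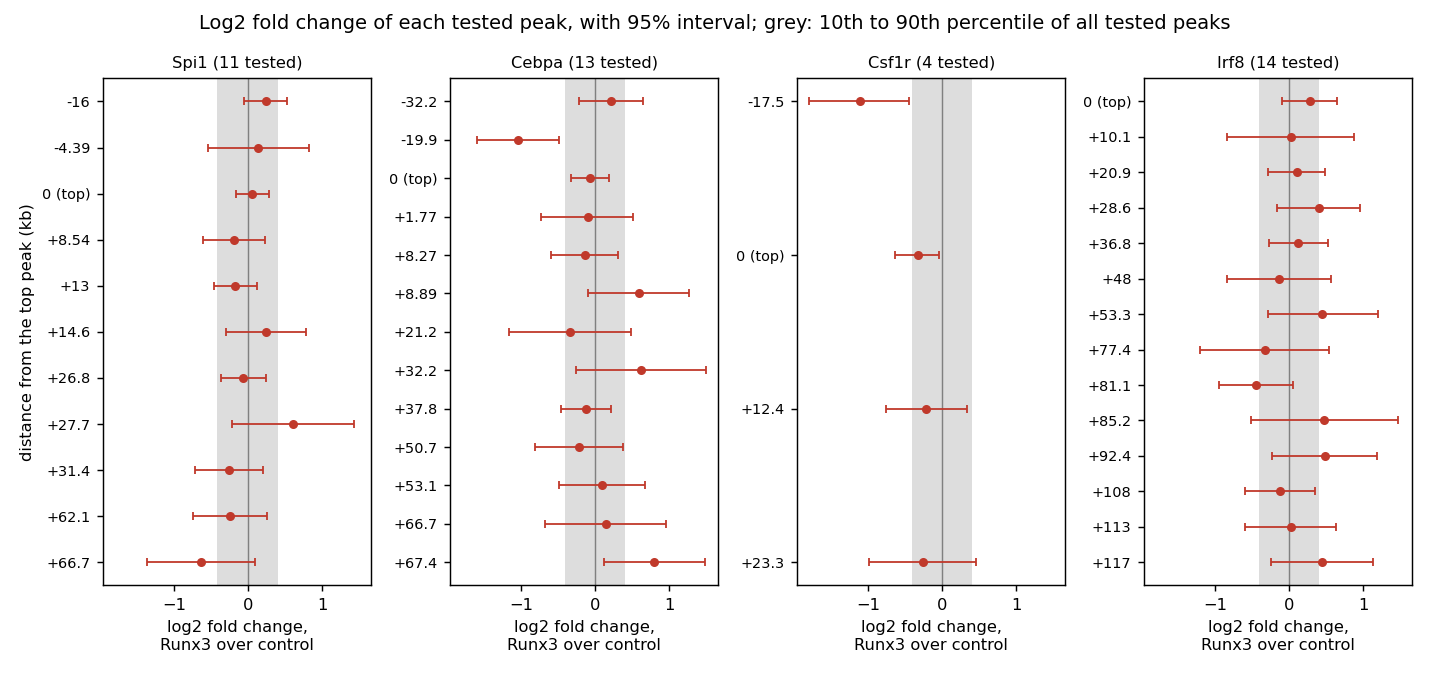
Log2 fold change (Runx3 over control, x axis) of each of the 42 tested peaks with its approximate 95% interval, listed down the page in order along each locus by distance in kb from the peak with the highest CPM; the grey band is the 10th to 90th percentile of all tested peaks (-0.41 to 0.40). Intervals of 4 peaks leave out 0, at 19.9 kb before and 67.4 kb past the Cebpa top peak and, at Csf1r, at 17.5 kb before the top peak and the top peak itself.

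The loci differed in how much open chromatin they held. Per 100 kb of window there were 15.6 peaks at Spi1, 14.2 at Cebpa, 10.6 at Irf8 and 7.14 at Csf1r. A member had a median of 12 other peaks within 50 kb, and a peak of the whole table had 7. Relative to the bases covered by peaks, the Spi1 locus had 39.6 CPM per kb in Runx3 libraries and 39.4 in controls. The corresponding levels were 19.6 and 19.7 CPM per kb at Cebpa, 16.4 and 21.1 at Csf1r, and 16.4 and 15.3 at Irf8. Spi1 was thus the most open of the 4 by length in both groups.

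Reads were next summed over all members of a locus. The Spi1 sum was 304, 313 and 274 CPM in Runx3 libraries 1, 3 and 4, against 306, 290, 286 and 303 CPM in controls 1 to 4. The Cebpa sum was 179, 178 and 160 CPM in the Runx3 libraries, against 168, 169, 165 and 190 CPM in the controls. Both loci had overlapping groups, with log2 ratios of the means of 0.01 and -0.01. The Irf8 sum was 147, 144 and 127 CPM with Runx3 and 129, 125, 134 and 132 CPM in controls, a log2 ratio of 0.10. Its groups overlapped through Runx3 4, and the log2 ratio was 0.21 within set 1 and 0.02 within set 2. The Csf1r sum was 54.3, 55.7 and 50.4 CPM with Runx3 and 59.4, 75.6, 75.1 and 64.7 CPM in controls. Here every Runx3 library lay below every control. The Csf1r means were 53.4 ± 2.74 CPM (SD, n = 3) with Runx3 and 68.7 ± 7.98 CPM (SD, n = 4) in controls, a log2 ratio of -0.36, with -0.31 within set 1 and -0.40 within set 2. Sums over chosen peaks were not tested.

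**Figure D2:**
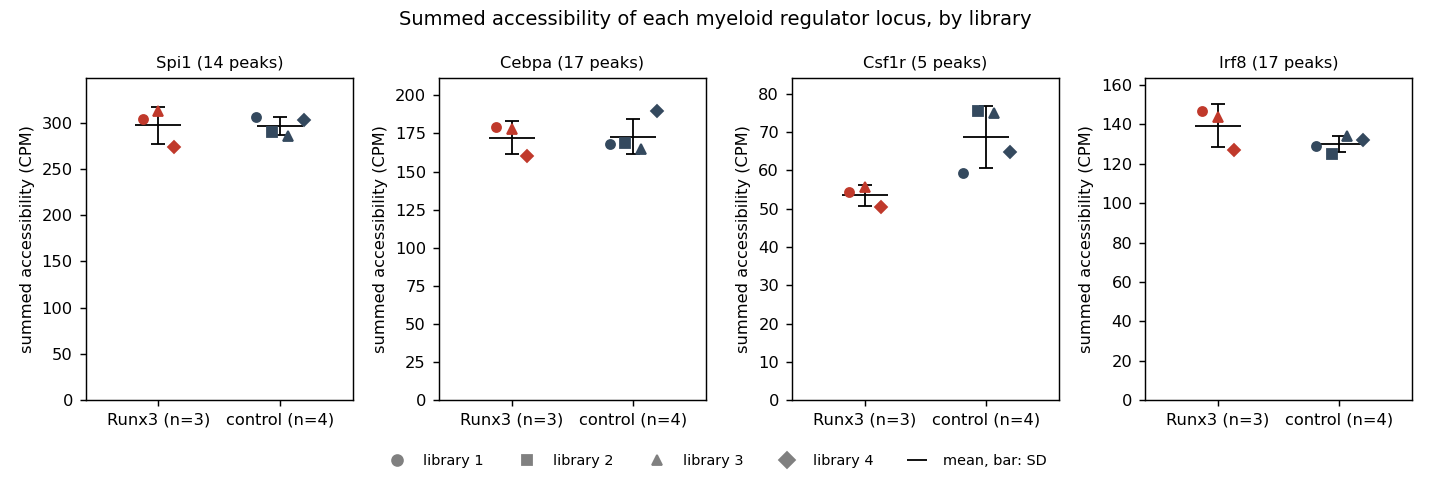
Summed accessibility (CPM, y axis) of all member peaks of each locus in each library, with Runx3 libraries left of controls, marker shapes for library numbers, and the mean with its SD. The groups overlap at Spi1, Cebpa and Irf8, while the Csf1r sums of 50.4 to 55.7 CPM in Runx3 libraries lie below the 59.4 to 75.6 CPM of controls.

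At Spi1, the strongest peak of all 4 loci stood at chr2:90909588-90910997. It had 120, 120 and 114 CPM in the Runx3 libraries and 124, 110, 108 and 112 CPM in the controls, and the groups overlapped. Its log2 fold change was 0.06 ± 0.11 (SE), with a 95% interval of -0.16 to 0.28 (edgeR adjusted p = 0.94). Its level over all libraries exceeded that of 99.6% of tested peaks. It held 39.8% ± 1.62 of the locus's reads with Runx3 (SD, n = 3) and 38.3% ± 1.59 in controls (SD, n = 4). In the RefSeq gene order of GRCm38.p6, Spi1 lies between Slc39a13 and Mybpc3, so a peak of this window need not serve Spi1, and none was assigned to a gene.

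A narrower Spi1 peak was as open per length. The peak at chr2:90923019-90923472 spans 453 bases and had 78.3 CPM per kb with Runx3 and 87.3 CPM per kb in controls, next to 83.9 and 80.6 CPM per kb at the strongest peak. Its levels were 38.1, 37.1 and 31.3 CPM with Runx3 and 36.7, 37.0, 39.6 and 44.9 CPM in controls, so the groups overlapped. The log2 fold change was -0.17 ± 0.14 (SE), with an interval of -0.46 to 0.12 (edgeR adjusted p = 0.82). A wide peak, at chr2:90936573-90937708, lies 13.9 kb further along between midpoints. It had 31.8, 43.4 and 30.9 CPM with Runx3 against 36.1, 40.5, 37.8 and 34.8 CPM in controls, and a log2 fold change of -0.06 ± 0.15 (SE). The window was set to include the upstream regulatory element, but which peak covers it was not determined, as no mm9 annotation was used.

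The remaining Spi1 peaks varied without a shared direction. At chr2:90893804-90894756 the levels were 43.0, 41.3 and 36.3 CPM with Runx3 and 40.3, 30.4, 34.3 and 31.9 CPM in controls. Runx3 1 and 3 were above every control there and Runx3 4 was not, and the log2 fold change was 0.24 ± 0.14 (SE, edgeR adjusted p = 0.70). The peak at chr2:90976794-90977190, 66.7 kb past the strongest, had 4.37, 4.64 and 2.72 CPM with Runx3 against 4.65, 4.67, 6.11 and 8.05 CPM in controls. The groups did not overlap, but Runx3 3 and control 1 were almost level, and the log2 fold change was -0.63 ± 0.36 (SE, edgeR adjusted p = 0.67). With the total count as a covariate it was -0.29, within set 2 it was -0.93, and in set 1 alone the peak was not tested. A small peak beside the wide one, at chr2:90937905-90938153, had 5.18 ± 1.62 CPM with Runx3 and 3.20 ± 1.29 CPM in controls (SD, n = 3 and 4). Its log2 fold change was 0.61 ± 0.41 (SE, edgeR adjusted p = 0.75), and over the alternatives it ran between 0.27, within set 2, and 1.24, within set 1. Of the 11 tested Spi1 peaks, 5 had log2 fold changes above 0 and 6 below, from -0.63 to 0.61.

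**Figure D3:**
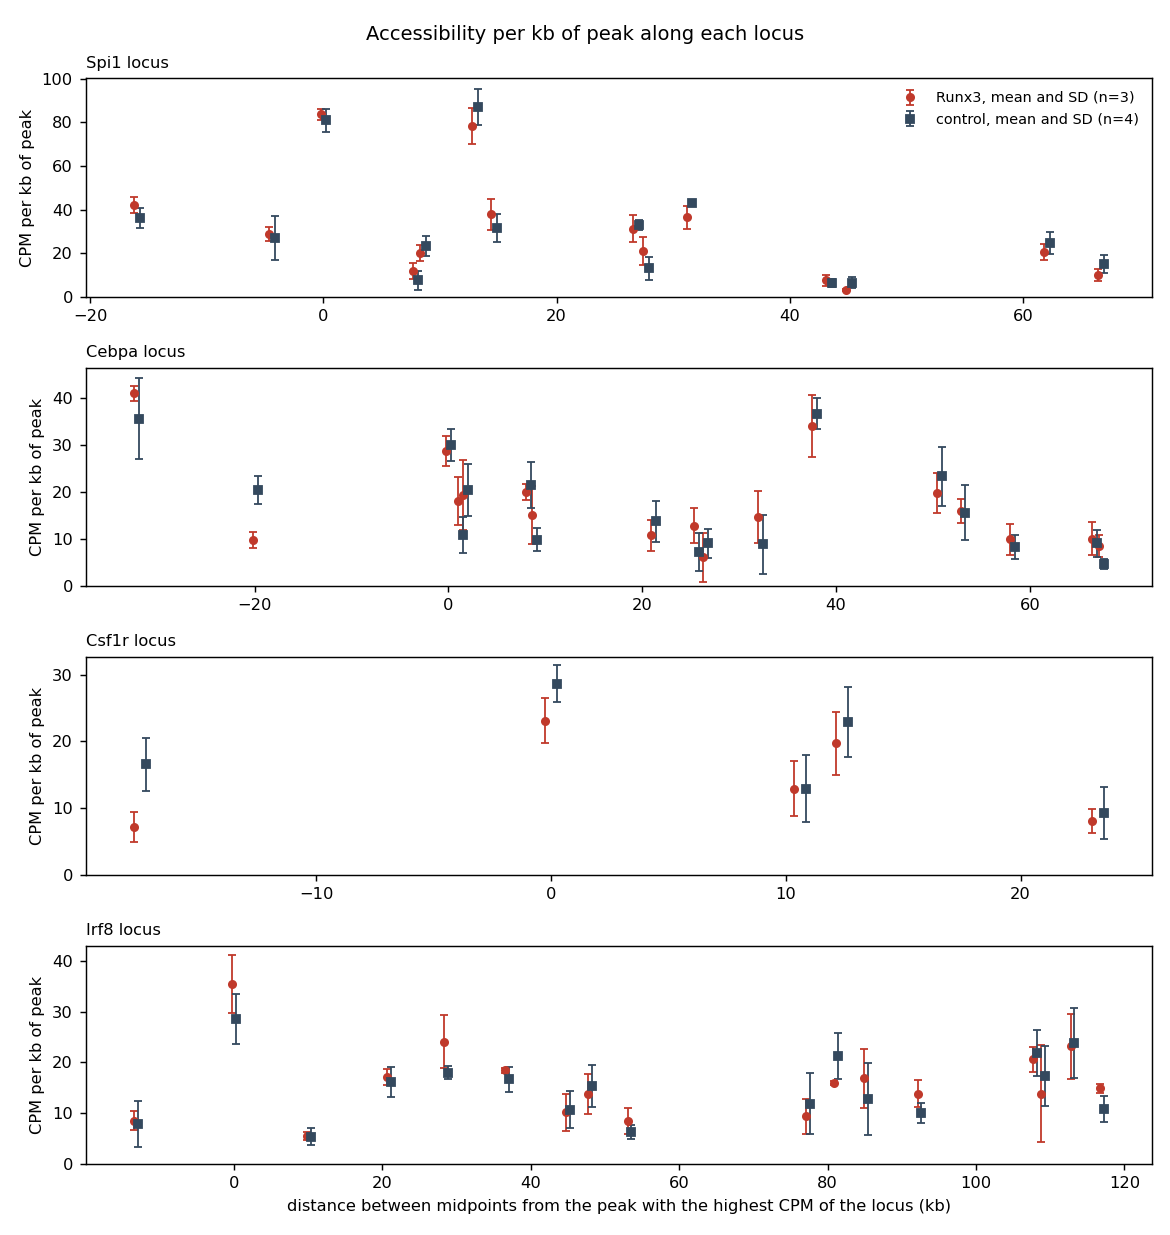
Accessibility per kb of peak (CPM per kb, y axis) of all 53 member peaks against distance in kb from the peak with the highest CPM of its locus; points are means and bars SDs over 3 Runx3 or 4 control libraries, drawn slightly apart. The profiles of the groups follow each other at Spi1, where 2 peaks reach 78.3 to 87.3 CPM per kb. The Runx3 mean is lower at the peak 19.9 kb before the Cebpa top peak and the one 17.5 kb before the Csf1r top peak. At the peak 67.4 kb past the Cebpa top peak it is higher, at 8.44 CPM per kb against 4.55 in controls.

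At Cebpa, the member with the smallest p of the 42 was a modest peak at chr7:35883769-35884340, 19.9 kb before the strongest peak of the window. It had 8, 16 and 11 reads in the Runx3 libraries and 20, 33, 34 and 46 reads in the controls. On the CPM scale these were 4.99, 6.75 and 4.99 with Runx3 against 10.3, 12.9, 9.9 and 13.2 in controls, and every Runx3 library lay below every control. The means were 5.58 ± 1.01 CPM (SD, n = 3) with Runx3 and 11.6 ± 1.71 CPM (SD, n = 4) in controls. The log2 fold change was -1.04 ± 0.28 (SE), with an interval of -1.59 to -0.48 and an unadjusted p of 0.00057, but it did not pass over all peaks (edgeR adjusted p = 0.16). It was -1.23 within set 1 and -0.97 within set 2. Without control 1 its adjusted p was 0.058, and over all alternatives the adjusted p ran from 0.058 to 1. The share of the locus's reads in this peak, which does not depend on library scaling, was 3.23% ± 0.512 with Runx3 and 6.68% ± 0.759 in controls (SD, n = 3 and 4).

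The main Cebpa sites showed no such difference. The strongest, chr7:35903035-35904783, is the widest member at 1748 bases and had 47.4, 56.5 and 46.3 CPM with Runx3 against 45.4, 59.2, 50.6 and 54.6 CPM in controls. The groups overlapped fully, with a log2 fold change of -0.07 ± 0.13 (SE) and an interval of -0.33 to 0.19 (edgeR adjusted p = 0.95). The second by level, chr7:35941299-35942034, lies 37.8 kb further along between midpoints. It had 28.1, 27.8 and 19.5 CPM with Runx3 and 23.8, 27.3, 29.7 and 27.3 CPM in controls, a log2 fold change of -0.12 ± 0.17 (SE) with an interval of -0.46 to 0.22 (edgeR adjusted p = 0.92). Runx3 4 was the lowest of the 7 and Runx3 1 and 3 stood among the controls. The rule names an enhancer 37 kb from Cebpa, but without an mm9 annotation neither peak was assigned to an element. Per length these peaks were close to each other, at 28.6 and 34.2 CPM per kb with Runx3 and 30.0 and 36.7 CPM per kb in controls.

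Other Cebpa peaks lay on both sides of 0. At chr7:35970864-35971719, near the far end of the window, the levels were 9.36, 5.48 and 6.81 CPM with Runx3 and 3.1, 3.51, 3.78 and 5.18 CPM in controls. Every Runx3 library lay above every control, although Runx3 3 and control 4 were close. The log2 fold change was 0.80 ± 0.34 (SE, unadjusted p = 0.022, edgeR adjusted p = 0.48), with 1.47 within set 1 and 0.44 within set 2. At chr7:35912570-35913024 the means were 6.88 ± 2.81 CPM with Runx3 and 4.46 ± 1.10 CPM in controls (SD, n = 3 and 4), and the log2 fold change was 0.59 ± 0.34 (SE) with an edgeR adjusted p of 0.68. That value moved with single libraries, to 0.20 ± 0.42 without Runx3 3 and 0.88 ± 0.36 without Runx3 4 (SE). Set 1 alone gave 0.93, set 2 alone 0.38, and a fit that adjusted for the total count 0.95 ± 0.45 (SE). Its neighbour at chr7:35911854-35912506 had 13.0 ± 1.08 CPM with Runx3 and 14.0 ± 3.14 CPM in controls (SD, n = 3 and 4). At chr7:35871527-35871956, the member nearest the near edge, the means were 17.6 ± 0.654 CPM with Runx3 and 15.3 ± 3.74 CPM in controls (SD, n = 3 and 4). Of the 13 tested Cebpa peaks, 6 had log2 fold changes above 0 and 7 below. Cebpa lies between Gm45095 and Slc7a10 in the same gene order, with Cebpg, the gene of another C/EBP factor, next beyond Gm45095.

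At Csf1r, the 4 tested peaks had log2 fold changes from -1.11 to -0.21, with a median of -0.30. All 4 lay below 0, where 51.2% of all tested peaks did. With so few peaks this is a description of the locus only. The peak that differed most, chr18:61250172-61250711, had 4, 11 and 10 reads with Runx3 and 18, 29, 31 and 21 reads in controls. On the CPM scale these were 2.5, 4.64 and 4.54 with Runx3 against 9.29, 11.3, 9.02 and 6.04 in controls, and the groups did not overlap. The means were 3.89 ± 1.21 CPM (SD, n = 3) with Runx3 and 8.91 ± 2.17 CPM (SD, n = 4) in controls. The log2 fold change was -1.11 ± 0.33 (SE), with an interval of -1.79 to -0.44 and an unadjusted p of 0.0018, and it did not pass over all peaks (edgeR adjusted p = 0.24). Its size depended on the library set, with -2.04 ± 0.71 within set 1, which has a single Runx3 library, and -0.71 ± 0.39 within set 2 (SE).

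The strongest Csf1r peak, chr18:61267239-61268697, held about the same share of the locus in both groups, at 62.8% ± 6.59 of its reads with Runx3 and 61.2% ± 5.83 in controls (SD, n = 3 and 4). Its levels were 37.4, 35.4 and 28.1 CPM with Runx3 and 36.1, 42.1, 44.2 and 44.9 CPM in controls. The groups overlapped only through Runx3 1 and control 1. The log2 fold change was -0.33 ± 0.14 (SE), with an interval of -0.63 to -0.04 (unadjusted p = 0.027, edgeR adjusted p = 0.50). Without Runx3 4 it was -0.21 ± 0.17 (SE, edgeR adjusted p = 0.92), and a fit that adjusted for the total count gave -0.25 ± 0.18 (SE). Set 1 alone gave -0.08 and set 2 alone -0.48, the opposite order of sets to the peak before it, and the difference between sets was not tested. At chr18:61280203-61280606 the means were 7.94 ± 1.90 CPM with Runx3 and 9.23 ± 2.10 CPM in controls (SD, n = 3 and 4). At chr18:61290940-61291561 they were 4.99 ± 1.12 CPM with Runx3 and 5.75 ± 2.40 CPM in controls. Both had overlapping groups and log2 fold changes of -0.21 ± 0.27 and -0.26 ± 0.36 (SE). The first was -0.60 within set 1 and -0.08 within set 2, and the second 0.07 within set 1 and -0.40 within set 2. Csf1r lies between Pdgfrb, the gene of another receptor tyrosine kinase, and Hmgxb3 in the RefSeq gene order.

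**Figure D4:**
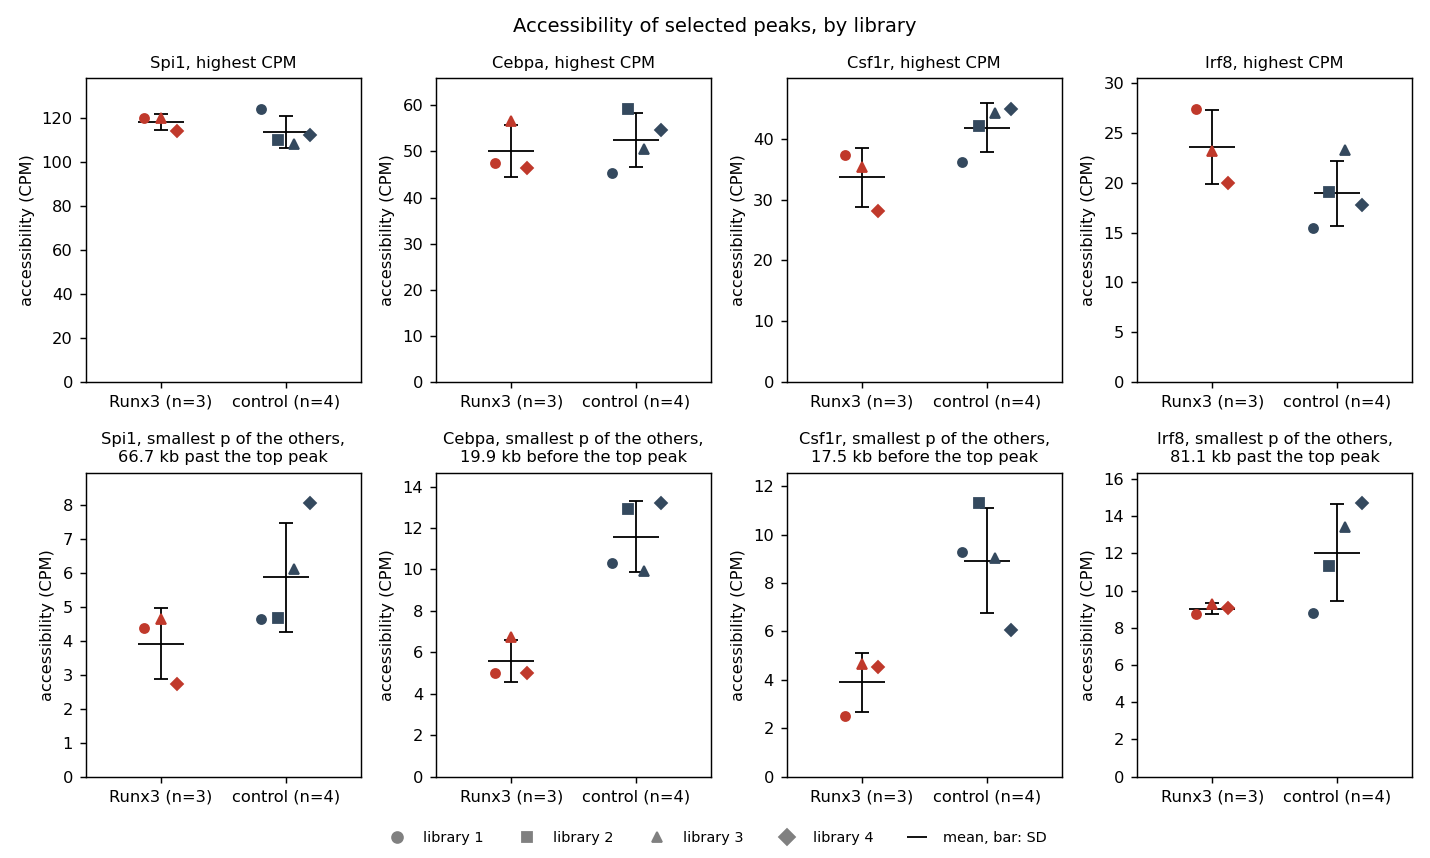
Accessibility (CPM, y axis from 0) in each library of the peak with the highest CPM of each locus (upper row) and of the peak with the smallest p among the others (lower row), Runx3 left of control, with means and SDs. In the lower row the groups are apart at Cebpa and Csf1r and overlap at Irf8. At Spi1 they almost touch, with 4.64 CPM in Runx3 3 and 4.65 CPM in control 1. The groups overlap throughout the upper row. Lower-row peaks were picked by p, so wider separation there follows in part from that choice. Among all tested peaks, 8.94% had groups that did not overlap. None of the 8 peaks passed at an edgeR adjusted p under 0.05.

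At Irf8 the reads were spread over several peaks. In none of the 14 tested were the groups apart, where 8.94% of all tested peaks had groups apart. With so few peaks that count says little about the locus. The strongest, chr8:123239044-123239707, had 27.4, 23.2 and 20.0 CPM with Runx3 and 15.5, 19.1, 23.3 and 17.8 CPM in controls. Control 3 lay within the Runx3 range, and the log2 fold change was 0.28 ± 0.18 (SE), with an interval of -0.09 to 0.65 (edgeR adjusted p = 0.75). It was 0.65 within set 1 and 0.07 within set 2. This peak held 16.8% ± 1.57 of the locus's reads with Runx3 and 14.5% ± 2.29 in controls (SD, n = 3 and 4), a smaller share than the strongest peaks of the other loci held.

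Next in level came chr8:123259731-123260886 and chr8:123275666-123276653. The first had 21.8, 19.0 and 18.6 CPM with Runx3 against 23.8, 17.9, 16.3 and 17.0 CPM in controls, and the second had 18.7, 17.7 and 18.2 CPM with Runx3 against 14.5, 14.4, 19.2 and 17.5 CPM in controls. The log2 fold changes of 0.10 ± 0.19 and 0.12 ± 0.19 were smaller than their errors (SE). At chr8:123267813-123268183, which lies between them, the means were 8.90 ± 1.93 CPM with Runx3 and 6.64 ± 0.475 CPM in controls (SD, n = 3 and 4), and the log2 fold change was 0.40 ± 0.28 (SE) with an edgeR adjusted p of 0.77. The value was 0.70 from set 1 alone and 0.25 from set 2 alone.

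The Irf8 peak with the smallest p lay further along, at chr8:123320154-123320721. Its levels were 8.73, 9.28 and 9.08 CPM with Runx3 and 8.78, 11.3, 13.4 and 14.7 CPM in controls. Control 1 stood with the Runx3 libraries and the other 3 controls stood above, and the log2 fold change was -0.45 ± 0.25 (SE) with an edgeR adjusted p of 0.66. With the total count as a covariate it was -0.11, and the sets taken singly gave -0.22 in set 1 and -0.61 in set 2. At chr8:123346692-123347256 the means were 11.6 ± 1.35 CPM with Runx3 and 12.3 ± 2.57 CPM in controls (SD, n = 3 and 4). Of the 14 tested Irf8 peaks, 10 had log2 fold changes above 0 and 4 below, from -0.45 to 0.48, and the median was 0.11. Irf8 lies between Cox4i1 and Foxf1 in the gene order, and the far part of this window may belong to other genes.

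The 11 members left untested were weak, the strongest of them at 207 bases wide and chr8:123348657-123348864 with 2.86 ± 1.97 CPM with Runx3 and 3.59 ± 1.23 CPM in controls (SD, n = 3 and 4). They were 3 at Spi1, 4 at Cebpa, 1 at Csf1r and 3 at Irf8. In 1 of them, chr2:90955234-90955602, the Runx3 libraries (2, 3 and 2 reads) lay below the controls (7, 4, 8 and 6 reads) after scaling, and at such counts a difference of this kind is poorly read. Among tested members the median width was 466 bases and the median level 8.14 CPM, and among all tested peaks they were 580 bases and 9.48 CPM. A larger part of members than of all peaks passed the filter, at 79.2% and 58.2%.

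Likeness to other sites was read from log2(CPM + 0.5) over the 7 libraries, for the strongest peak of each locus against 27499 peaks outside the loci with at least 10 CPM. The closest match of the Spi1 peak was chr9:71980466-71981654 (Pearson r = 0.988) and that of the Cebpa peak chr19:47771522-47772200 (r = 0.986). The Csf1r peak was closest to chr6:100433120-100433816 (r = 0.997) and the Irf8 peak to chr6:83456401-83457403 (r = 0.997). With 7 libraries and so many candidates, such values arise for many peaks, 95 to 220 of them with r above 0.9 for each locus. Within its own locus the closest peak reached 0.848 at Spi1, 0.547 at Cebpa, 0.445 at Csf1r and 0.827 at Irf8. All points share the depth and scaling of their library.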

How the data were processed

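Omni-ATAC-seq was applied to sorted stem cells, with 3 Runx3 and 4 control libraries. The deposited values are raw counts of reads in each mm9 peak. Per the submitters' processing notes, the tools were Bowtie2, SAMtools, Picard, MACS2, Trim Galore and FastQC. How they were run, how peaks were merged across libraries and whether reads were shifted for Tn5 is not given in the sources used here. Whether starts count from 0 or 1 is not stated, which leaves each start uncertain by 1 base.

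The main test was edgeR 4.0.16 (R 4.3.3). Its filterByExpr, with 10 as the minimum count and 15 as the minimum total, retained 57504 peaks and 91.6% of reads. Libraries were TMM-scaled, and the robust quasi-likelihood test compared Runx3 with control over all 7 libraries without a block. P-values were adjusted by Benjamini-Hochberg over all tested peaks at 0.05. SEs are the log2 fold change over the square root of F, and 95% intervals use the test's degrees of freedom, so both are approximate. They rest on the spread between these libraries and on counting, and no molecular identifiers were used here. The test was checked on simulated counts. DESeq2 1.42.0 and limma-voom (limma 3.58.1) were alternatives. Every pair of libraries of a group differed beyond sampling noise (1.19 to 2.59, chi-square per degree of freedom). Library numbers 1, 3 and 4 occur in both groups, and deviations of same-numbered libraries correlated at 0.126, 0.111 and 0.0673, which did not establish pairing.

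The windows, library sets and lists were chosen with earlier results of these data known. Named peaks are, per locus, the 4 tested peaks with the highest mean CPM, the 3 with the smallest p and any called. Untested peaks named in the text were chosen after their values were seen. Gene lists, promoter distances and marker genes were not analysed here.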

Additional observations from a re-analysis of the deposited data

Results flagged for a closer look

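Control 4 stood apart from the other controls in the summed Cebpa level, with 190 CPM against 165 to 169 CPM, and its gap to the nearest control took 0.856 of the range of the 4. The Runx3 sums of 160 to 179 CPM lay around the other 3 controls. Of 27 group values examined in this way (4 locus sums and 23 named peaks) 1 stood out, where chance gives about 1.35. Without control 4 the log2 ratio of the Cebpa sums was 0.04, against -0.01 with it.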

How the results depend on the processing

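No member was called under any of the 20 alternatives, and the lowest adjusted p of a member was 0.058, for the Cebpa peak at 35883769 without control 1. Over all peaks 19 were called higher and 23 lower. The counts changed to 41 higher without a low-count filter, 0 and 0 at a mean count of at least 50 (376 and 482 at an unadjusted p under 0.05), 5 and 1 with DESeq2, 5 and 0 with limma-voom, 8 and 10 without robust estimation, 33 and 51 with depth as a covariate, and 41 and 50 at an adjusted p under 0.10. Within set 1 there were 9 higher, and within set 2 36 lower. Dropping single libraries moved the higher calls between 0 and 73 and the lower calls between 0 and 194. Dropping control 2 or Runx3 1 left 0 and 0 (1861 and 1878, or 2133 and 2342, at an unadjusted p under 0.05), and dropping control 1 raised them to 73 and 194. The cause was not tested. A replicate block gave 30 higher and 71 lower, still with 0 members. The correlation of deviations did not establish that numbers pair the libraries: each Runx3 library was closest to the control of its own number, but control 4 was closest to Runx3 3.

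Locus sums moved by more than the spread between replicates within set 1 at Cebpa (0.09) and Irf8 (0.21), and in no other alternative run. Leaving out 1 library gave -0.43 to -0.31 at Csf1r, -0.03 to 0.06 at Spi1, -0.03 to 0.04 at Cebpa and 0.06 to 0.16 at Irf8. Of 23 named peaks, 10 changed sign under some alternative, all with small log2 fold changes. Under the depth covariate these were 0.02 at Cebpa 35903035, 0.13 at Cebpa 35911854, -0.16 at Irf8 123259731, 0.21 at Irf8 123346692 and -0.01 at Spi1 90909588. Within set 1 they were 0.24 at Cebpa 35911854, 0.12 at Cebpa 35941299, 0.07 at Csf1r 61290940, 0.08 at Irf8 123346692 and 0.04 at Spi1 90923019. Within set 2 they were -0.04 at Irf8 123275666 and 0.04 at Spi1 90936573. Leaving out 1 library turned Cebpa 35911854 (range -0.23 to 0.01), Cebpa 35941299 (range -0.22 to 0.04) and Spi1 90936573 (range -0.25 to 0.04).

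Low read counts limit the weaker peaks, and a missed threshold does not show that accessibility was alike.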
